A study of Mus musculus with 8 samples.

Results

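The genes described here are 10 members of the unfolded protein response and of the amino acid stress response, measured in mouse duodenum. They were taken by symbol from the deposited gene table, out of 54532 rows. The 10 symbols matched 11 rows, because Ddit3 has a second annotated ID that stood at 0 in every library and was left out. Hspa5, Hsp90b1, Pdia4 and Sdf2l1 encode chaperones and folding enzymes of the endoplasmic reticulum (ER). Herpud1 and Dnajb9 serve the disposal of misfolded ER proteins. Atf4, Ddit3, Trib3 and Asns belong to the arm that is switched on by amino acid shortage as well as by ER stress. The samples were 4 wild-type (WT) duodena, with both Zeb2 copies intact, and 4 duodena labelled as Zeb2 mutation, from a line with a global heterozygous Zeb2 knockout (Zeb2+/-), made to study poor growth in Mowat-Wilson syndrome. No treatment is named for either genotype, and the sources used here do not give age, sex, strain or the knockout allele. Nothing states that each library came from a separate animal, so p-values measure the spread between these libraries, which may be technical.

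When proteins fail to fold in the ER, the sensors IRE1, PERK and ATF6 raise the output of chaperones and degradation factors and hold back new protein synthesis. PERK and the amino acid sensor GCN2 both phosphorylate the initiation factor eIF2, which slows translation in general while favouring translation of Atf4 mRNA. Much of the regulation of ATF4 is therefore translational and is not seen in an mRNA level. In the gut these pathways are best known from secretory cells, above all Paneth, goblet and plasma cells, whose ER handles a heavy load of exported protein.

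Each library held 13579347 to 17137417 reads assigned to genes. The members were covered by 144 to 10654 reads per library, the fewest for Ddit3, where counting error weighs most. FPKM are fragments per kilobase of gene, scaled to a library total. The total implied by the deposited values was 0.733 to 1.16 times the reads assigned, for a reason not stated. Zeb2, the targeted gene, averaged 0.943 ± 0.192 FPKM in WT against 0.301 ± 0.146 in Zeb2+/- (SD, n = 4), without overlap (log2 fold change -0.58, limma adjusted p = 0.0772). Markers of cell types that can express Zeb2 were lower beside it: the sum of 10 macrophage markers was 137.7 to 155.7 FPKM in WT and 24.7 to 63.0 in Zeb2+/- (6 of 10 passed as lower). For 9 fibroblast markers it was 94.5 to 139.7 and 29.2 to 71.7 (5 of 9 passed as lower). Their part in the Zeb2 value was not tested. The enterocyte markers Fabp1 and Vil1 were at 3016 FPKM or more and 350.5 FPKM or more in every library, and all 14 enterocyte markers of the list passed the minimum level. Libraries 1 and 3 of Zeb2+/- stood apart in marker sums. The summed FPKM of 14 enterocyte markers was 16643 in library 1 and 51860 in library 3, against 26991 to 39474 in WT. For 10 smooth muscle markers the sum was 981.1 and 655.2, against 303.1 to 403.7 in WT. Zeb2+/- library 4, at 420.5, was also above that WT range, and library 2, at 391.9, was within it. Of either list 0 genes passed limma's test, and no gene was at 0 in every library. The FPKM of all genes summed to 354907 in Zeb2+/- library 1 and 551183 in library 3, against 388314 to 453494 in WT. Library 2 of Zeb2+/-, at 484018, was also above the WT range, and library 4, at 429247, was within it. The median-of-ratios factor, a library scale read from the typical gene, differed less than these totals. It was 1.021 in Zeb2+/- library 1 and 1.057 in library 3, against 1.004 to 1.021 in WT. In Zeb2+/- libraries 2 and 4 it was 1.018 and 1.00008. The parts of library scale and of composition in the totals and in the marker sums were not tested. In whole tissue, fewer cells of a type and less RNA per cell cannot be told apart.

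In the deposited table (GRCm38) the members lie as follows. Hspa5 (ENSMUSG00000026864) is at chr2:34771970-34777547 on the plus strand. Hsp90b1 (ENSMUSG00000020048) is at chr10:86690209-86705509 on the minus strand. Pdia4 (ENSMUSG00000025823) is at chr6:47796141-47813430 on the minus strand. Sdf2l1 (ENSMUSG00000022769) is at chr16:17130138-17132383 on the minus strand. Herpud1 (ENSMUSG00000031770) is at chr8:94386438-94395377 on the plus strand. Dnajb9 (ENSMUSG00000014905) is at chr12:44205559-44210326 on the minus strand. Atf4 (ENSMUSG00000042406) is at chr15:80255184-80257541 on the plus strand. Ddit3 (ENSMUSG00000025408) is at chr10:127290774-127296288 on the plus strand. Trib3 (ENSMUSG00000032715) is at chr2:152337422-152344032 on the minus strand. Asns (ENSMUSG00000029752) is at chr6:7675169-7693254 on the minus strand. All 10 are annotated as protein coding, and values are per gene, not per transcript. The antisense gene Gm15890 covers the first 535 bases of Herpud1, at means of 0.462 (WT) and 0.103 FPKM (Zeb2+/-).

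The promoters of several members carry the short sequences through which these pathways are known to act. Only exact matches are shown, so a member without one may still hold an altered form or a site further away. RefSeq starts and promoter sequences (GRCm38.p6, 250 bases before to 50 after the start) were found for all 10 members. A RefSeq start can differ from the end of the gene span given above. The Hspa5 and Asns stretches below thus lie before the RefSeq start but inside those spans. The ER stress element reads CCAAT, any 9 bases, CCACG. It was found in Hspa5 and Hsp90b1, against 0.119% of 32851 mouse promoters of the same length. Its shorter form, ATTGG, any base, CCACG, was found in Herpud1 and in 0.0365% of all promoters. The ATF4 type element TGATGNAAN was found in Herpud1, Trib3 and Asns and in 3.95% of all promoters; in Trib3 it lies at 14 to 22 bases after the start and is not printed. The element TGACGTGG was in none of the 10 and in 0.676% of all. Both strands were searched, elements may overlap by their CCAAT or CCACG parts, and a match is a run of letters only. Capitals mark the match in these stretches of 30 bases, written 5′ to 3′ on the strand of the gene, and an element on the other strand appears as its complement.
Hspa5, chr2:34772020-34772049, plus strand: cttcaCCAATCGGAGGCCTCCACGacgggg
Hsp90b1 far copy, chr10:86705632-86705661, minus strand: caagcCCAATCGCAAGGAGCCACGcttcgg
Hsp90b1 near copy, chr10:86705527-86705556, minus strand: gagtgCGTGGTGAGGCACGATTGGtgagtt
Herpud1 short ER element, chr8:94386368-94386397, plus strand: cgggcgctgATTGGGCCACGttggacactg
Herpud1 ATF4 type element, chr8:94386306-94386335, plus strand: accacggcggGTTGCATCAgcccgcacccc
Asns, chr6:7693213-7693242, minus strand: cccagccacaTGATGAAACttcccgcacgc

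Of the 10 members, all passed the minimum mean of 1 FPKM, and 0 passed the threshold of limma's moderated test across 12190 genes (adjusted p below 0.05, Benjamini-Hochberg). In the same test 395 genes passed, which is 3.24% of those tested. With limma voom on reads rebuilt from the FPKM, 0 members passed as well. At an unadjusted p below 0.05 there were 3 members, against 18.9% of all tested genes. They were Atf4, at a higher level in Zeb2+/-, and Asns and Sdf2l1, at lower levels. In Atf4 and Asns the libraries of the genotypes did not overlap, as in 14.5% of all tested genes. Both counts are near what these shares give for 10 genes. Their median log2 fold change was -0.05, beside 0.00 over all tested genes, with 4 members above 0 and 6 below.

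**Figure D1:**
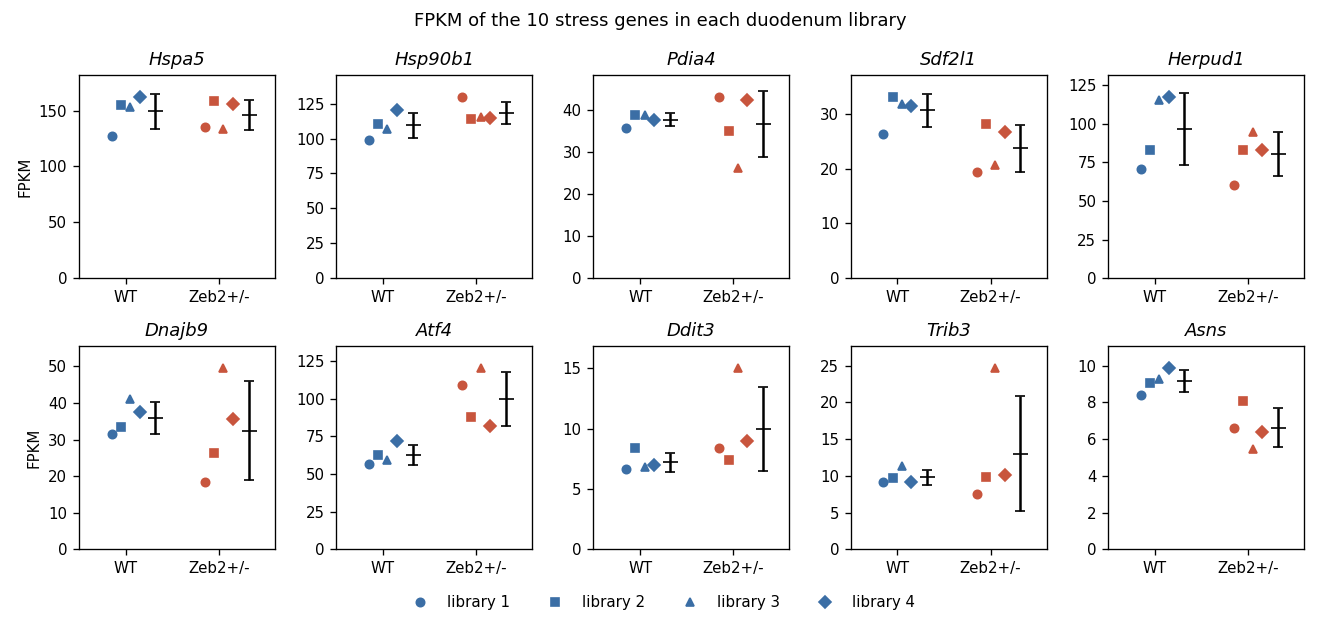
FPKM of each of the 10 genes in the 4 WT (blue) and 4 Zeb2+/- (red) libraries; the marker shape gives the library number, and the black bar the mean ± SD of each genotype (n = 4). Atf4 lies higher and Asns lower in all 4 Zeb2+/- libraries, and Trib3 and Ddit3 have their highest value in Zeb2+/- library 3.

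Hspa5 encodes BiP, the main HSP70 chaperone of the ER lumen and the usual readout of ER stress. Hspa5 stood at 127, 155, 153 and 163 FPKM in WT libraries 1 to 4 and at 135, 159, 134 and 156 FPKM in Zeb2+/- libraries 1 to 4. The genotypes overlapped along nearly their whole range. The means were 149.5 ± 15.6 and 146.1 ± 13.4 FPKM (SD, n = 4), and limma gave a log2 fold change of -0.03 (SE 0.14, adjusted p = 0.933). The 95% interval of that difference ran from -0.35 to 0.29, so that a rise of the size of that in Atf4 lies outside it.

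Hsp90b1 encodes GRP94, the HSP90 chaperone of the same compartment. Its level was 99.2, 110.4, 107 and 121 FPKM in WT and at 130.0, 114, 115 and 115 FPKM in Zeb2+/-. Library 1 of Zeb2+/- was the highest of the 8 and the other 3 lay within the WT range. The log2 fold change was 0.12 (SE 0.13, limma adjusted p = 0.678; 95% interval -0.17 to 0.40). Hsp90b1 shares its span with the antisense pseudogene 1810014B01Rik over 4598 bases, whose means were 1.05 (WT) and 1.10 FPKM (Zeb2+/-). On the same strand as Hsp90b1, the processed transcript Gm15344 covers 977 bases, at means of 2.02 (WT) and 1.67 FPKM (Zeb2+/-). How reads that fit both genes were counted is not stated.

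Pdia4 encodes a disulfide isomerase with thioredoxin-like domains that helps to form and reshuffle disulfide bonds. Its WT libraries lay close together at 35.6, 38.7, 38.8 and 37.5 FPKM, a coefficient of variation of 3.96%. The Zeb2+/- libraries ranged more widely at 43.1, 34.9, 26.2 and 42.2 FPKM, a coefficient of variation of 21.4%, on both sides of the WT values. The log2 fold change was -0.06 (SE 0.17, limma adjusted p = 0.877), and it turned to 0.083 without Zeb2+/- library 3.

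Sdf2l1 encodes a small ER protein that works with BiP and its J-domain partners. It was measured at 26.3, 33.1, 31.8 and 31.4 FPKM in WT and at 19.5, 28.1, 20.6 and 26.6 FPKM in Zeb2+/-. Only the lowest WT library reached into the Zeb2+/- range, and libraries 1 and 3 of Zeb2+/- were the lowest of all. The log2 fold change was -0.37 (SE 0.15, limma adjusted p = 0.235, unadjusted 0.0370), or -0.15 (adjusted p = 0.533) without those 2 libraries.

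Herpud1 encodes a membrane protein of the ER degradation complex and carries both the short ER element and an ATF4 type element in the promoter stretches shown above. It was spread in WT itself, at 70.4, 83.2, 115.1 and 118 FPKM, and stood at 60.6, 83.0, 94.98 and 82.8 FPKM in Zeb2+/-. The means of 96.6 ± 23.4 and 80.3 ± 14.3 FPKM (SD, n = 4) differed by less than the WT spread (log2 fold change -0.25, SE 0.21, limma adjusted p = 0.580). Dnajb9 encodes ERdj4, a J-domain partner of BiP that takes part in degradation and restrains IRE1. Dnajb9 was at 31.4, 33.3, 41.1 and 37.6 FPKM in WT and at 18.3, 26.2, 49.6 and 35.7 FPKM in Zeb2+/-. Library 1 of Zeb2+/- gave the lowest and library 3 the highest of its 8 values, so the Zeb2+/- spread enclosed WT (log2 fold change -0.22, SE 0.27, limma adjusted p = 0.717). Without Zeb2+/- library 1 the difference was 0.013.

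Atf4 encodes the bZIP transcription factor that drives the amino acid arm. It was at 56.6, 62.7, 59.5 and 72.2 FPKM in WT and at 109.0, 88.0, 121 and 81.8 FPKM in Zeb2+/-. Every Zeb2+/- library lay above every WT library, with libraries 1 and 3 the highest. Means were 62.7 ± 6.76 FPKM (WT) and 99.9 ± 18.1 FPKM (Zeb2+/-; SD, n = 4), the latter 159% of the former. In limma the log2 fold change was 0.65 (SE 0.16, 95% interval 0.28 to 1.02), and the adjusted p of 0.0711 missed the threshold. Over 22 alternative settings its adjusted p ran from 0.0349 to 0.228, and it passed in 1 of them, array weights. Without Zeb2+/- libraries 1 and 3 the log2 fold change was 0.44 (adjusted p = 0.135).

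The promoter stretch of Atf4 just before its start (chr15:80255034-80255183, plus strand, GRCm38.p6) is shown because Atf4 had the largest difference of the 10. It holds CCAAT and CCACG, in capitals, but not at the spacing of the ER stress element, and no TGATGNAAN. Single CCAAT and CCACG pentamers are common, in 37.4% and 32.8% of all promoters.
Atf4: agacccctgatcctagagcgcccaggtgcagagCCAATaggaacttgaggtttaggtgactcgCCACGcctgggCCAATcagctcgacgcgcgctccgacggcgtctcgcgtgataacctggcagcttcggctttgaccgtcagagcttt

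Ddit3 encodes CHOP, a bZIP factor that is induced by ATF4 and linked to cell death under lasting stress. It was low, at 6.66, 8.38, 6.85 and 7.01 FPKM in WT and at 8.44, 7.44, 15.1 and 8.97 FPKM in Zeb2+/-. Library 2 of Zeb2+/- lay inside the WT range and library 3 far above it. The log2 fold change was 0.37 (SE 0.19, limma adjusted p = 0.337; 95% interval -0.06 to 0.81). Its last 68 bases lie opposite Mars, a tRNA synthetase gene on the other strand, with means of 9.77 (WT) and 7.74 FPKM (Zeb2+/-). The strand setting of the counting is not stated, so reads of the shared bases cannot be told apart. The second Ddit3 ID, at 0 in every library, covers 2925 bases of this gene on the same strand. How reads that fit both IDs were counted is not stated, so the Ddit3 level may be too low.

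Trib3 encodes a pseudokinase induced by ATF4 and CHOP that feeds back on ATF4. Its WT values were 9.14, 9.65, 11.3 and 9.15 FPKM, and its Zeb2+/- values 7.54, 9.79, 24.7 and 10.1 FPKM. Library 3 of Zeb2+/- held the highest and library 1 the lowest of the 8 values, and the remaining pair lay within the WT range. The log2 fold change was 0.24 (SE 0.30, limma adjusted p = 0.726), and -0.10 without Zeb2+/- library 3.

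Asns encodes asparagine synthetase, a classical target of ATF4 under amino acid shortage. Its element lies from position -23 to -15 relative to the RefSeq start. It was at 8.39, 9.06, 9.28 and 9.88 FPKM in WT and at 6.60, 8.06, 5.48 and 6.36 FPKM in Zeb2+/-. Every Zeb2+/- library lay below every WT library, library 3 the lowest. Means were 9.15 ± 0.614 FPKM (WT) and 6.63 ± 1.07 FPKM (Zeb2+/-; SD, n = 4), the latter 72.4% of the former. In limma the log2 fold change was -0.42 (SE 0.12, 95% interval -0.69 to -0.15), with an adjusted p of 0.109 that missed the threshold. Over 22 alternative settings the adjusted p ran from 0.0203 to 0.265, and it passed in 1 of them, again array weights. Atf4 and Asns thus pointed in opposite directions in each of the 4 Zeb2+/- libraries, relative to their WT means.

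**Figure D2:**
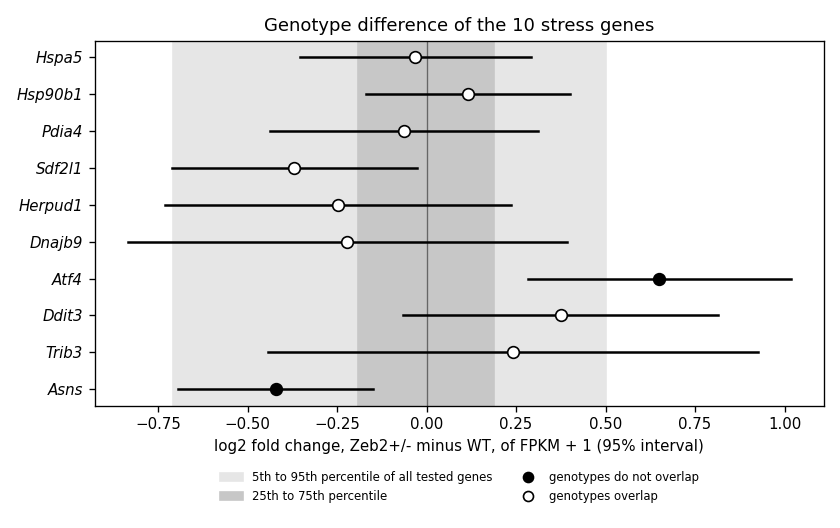
Log2 fold change of FPKM + 1 (Zeb2+/- minus WT) of the 10 genes with limma's 95% interval; filled points mark genes whose genotypes do not overlap, and the grey bands give the 25th to 75th and the 5th to 95th percentile of all 12190 tested genes. Atf4, at 0.65, is the only member beyond the bands, whose outer edges are -0.71 and 0.50.

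By level, the chaperones led in WT. Hspa5 (lowest library 127 FPKM) lay above Hsp90b1 (highest library 121 FPKM), while Hsp90b1 overlapped with Herpud1 and Herpud1 with Atf4. Below Atf4, without overlap, Pdia4, Dnajb9 and Sdf2l1 followed at means of 37.7, 35.8 and 30.7 FPKM and overlapped one another in turn. Trib3, Asns and Ddit3 formed the low end at 9.81, 9.15 and 7.22 FPKM. Trib3 and Asns overlapped, and Asns and Ddit3 were separated narrowly, by 8.39 against 8.38 FPKM. The place of Ddit3 is uncertain, because reads shared with its second ID may not have been counted. In Zeb2+/- the mean of Atf4 (99.9 FPKM) stood above that of Herpud1 (80.3 FPKM), the reverse of their WT order, with overlapping libraries.

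Most members were more widely spread in Zeb2+/- than in WT, as most genes were. The coefficient of variation was larger in Zeb2+/- for 7 of the 10 members, as for 83.2% of all tested genes. It ran from 3.96% to 24.3% in WT and from 6.54% to 60.4% in Zeb2+/-. Libraries 1 and 3 of Zeb2+/- held 12 of the 20 highest or lowest values of the members, and 52.6% of those of all tested genes. Library 1 was the lowest of the 8 for Sdf2l1, Herpud1, Dnajb9 and Trib3 and the highest for Hsp90b1 and Pdia4. Library 3 was the highest for Dnajb9, Atf4, Ddit3 and Trib3 and the lowest for Pdia4 and Asns. These are the libraries whose enterocyte and smooth muscle marker sums stood apart. The part of composition or of library scale in these values was not tested.

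**Figure D3:**
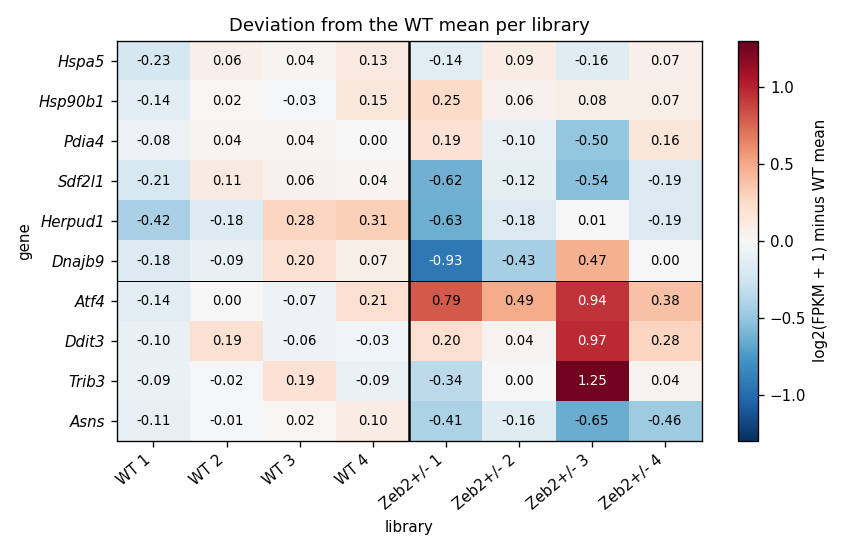
Log2(FPKM + 1) of each gene in each library minus its WT mean, with the 6 ER genes above the thin line and the 4 genes of the ATF4 arm below it. Zeb2+/- library 3 is high for Atf4, Ddit3 and Trib3 (0.94, 0.97 and 1.25) and low for Asns (-0.65), and Zeb2+/- library 1 is low for Dnajb9 (-0.93).

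The wider pathway was read from 11 lists of general knowledge that hold 175 genes besides the members, of which 158 passed the minimum mean. Of these, 1 was higher and 1 lower in Zeb2+/- by limma, 1.27% together, against the 3.24% of all genes. Selenos, a selenoprotein of the ER degradation channel, rose: its mean was 41.7 ± 2.69 FPKM (WT) and 62.6 ± 5.84 FPKM (Zeb2+/-; SD, n = 4). Limma put that rise at 0.57 on the log2 scale, with a standard error of 0.12 and an adjusted p of 0.0354. It lost its call in 14 of 22 alternative settings, among them without any 1 WT library (adjusted p = 0.0779 to 0.136) and without Zeb2+/- library 2, 3 or 4 (0.0565 to 0.0789). Bhlha15 encodes MIST1, a factor that shapes the secretory apparatus of acinar, Paneth and plasma cells. Bhlha15 fell: its mean was 2.47 ± 0.405 FPKM (WT) and 0.809 ± 0.122 FPKM (Zeb2+/-). Limma gave -0.94 on the log2 scale, with a standard error of 0.13 and an adjusted p of 0.00495, and Bhlha15 passed in each of the 21 alternatives in which it was tested. Marker sums were lower in Zeb2+/- for some secretory cells and overlapped between the genotypes for others. The sum of 11 Paneth markers was 2303 to 4550 FPKM in WT and 319 to 744 in Zeb2+/-, and that of 12 plasma cell markers 1409 to 2115 and 146 to 553. The sum of 10 goblet markers overlapped, at 2643 to 4243 and 1556 to 4278 FPKM, with 0 of 10 passing. The full list of 15 acinar markers also overlapped, at 1889 to 3610 and 582 to 1987 FPKM. In Zeb2+/- nearly all of that sum was Zg16, which is on the goblet list too and averaged 1226 ± 352 and 1347 ± 579 FPKM (log2 fold change 0.05, limma adjusted p = 0.967). The other 14 acinar markers came to 161 to 2436 and 2.19 to 9.68 FPKM. Of these lists 9 of 11 Paneth and 2 of 11 tested plasma cell markers passed as lower, and 11 of 13 tested acinar markers of the full list. Their part in the Bhlha15 value was not tested.

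**Figure D4:**
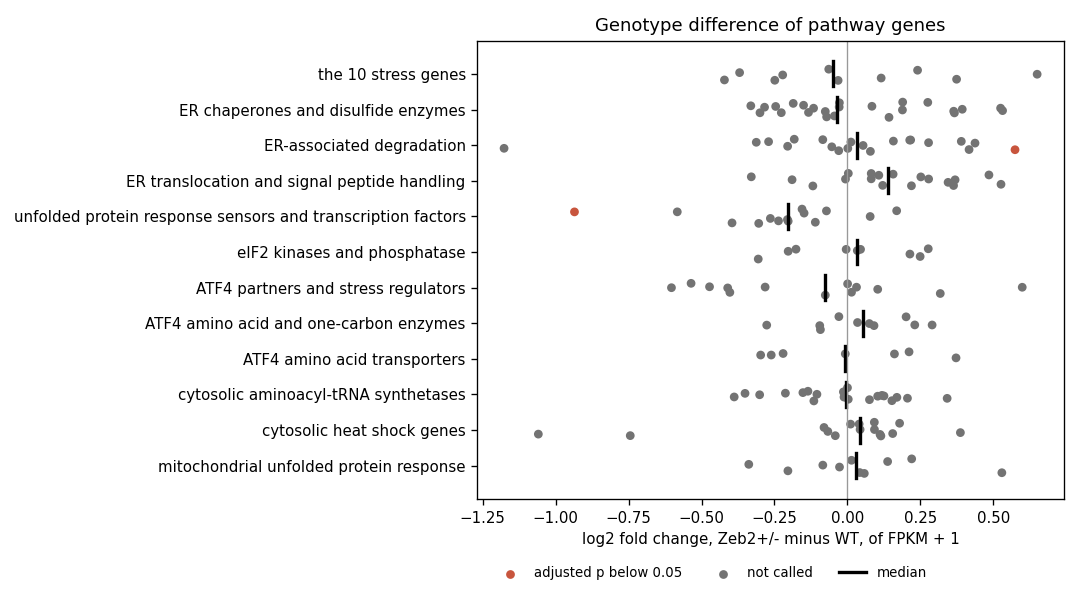
Log2 fold change of FPKM + 1 (Zeb2+/- minus WT) of every tested gene of the 10 members and of the 11 pathway lists; red points passed limma's adjusted p below 0.05 and black bars are medians. The called points are Selenos (0.57) among the degradation genes and Bhlha15 (-0.94) among the sensors and transcription factors.

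None of the 24 tested ER chaperones and disulfide enzymes beyond the members passed by limma or by voom, with 5 higher and 1 lower at an unadjusted p below 0.05 (median log2 fold change -0.04). Counts at that unadjusted threshold, here and for the lists that follow, stand against 18.9% of all tested genes. Dnajb11, a J-domain partner of BiP, stood at 37.2 ± 2.49 and 48.2 ± 2.57 FPKM and Manf, a secreted factor of the ER, at 28.6 ± 3.56 and 37.7 ± 0.901 FPKM in WT and Zeb2+/- (limma adjusted p = 0.124 and 0.128). Hyou1, the large ER chaperone, named after its values were seen, was at 17.0 ± 1.08 and 16.8 ± 2.22 FPKM (adjusted p = 0.929). Among 18 tested genes of ER import and signal peptide removal, 14 lay above 0 (median 0.14), against 50.3% of all tested genes, and 0 passed, with 8 higher and 0 lower at an unadjusted p below 0.05. Sec11a, a catalytic subunit of the signal peptidase, was at 13.6 ± 0.811 and 19.6 ± 2.23 FPKM and the translocon subunit Sec61b at 35.8 ± 4.75 and 52.2 ± 8.79 FPKM (adjusted p = 0.0546 and 0.122). Sec11a passed with array weights (adjusted p = 0.0117) and without Zeb2+/- library 1 (0.0481). Of 20 tested degradation genes, Selenos alone passed (list median 0.03), with 4 higher and 2 lower at an unadjusted p below 0.05.

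Of 14 tested sensors and transcription factors of the response, 12 lay below 0 (median -0.20), against 49.7% of all tested genes. Of these 1 passed (Bhlha15), and 2 were lower and 0 higher at an unadjusted p below 0.05, a share under that of all tested genes. Xbp1, the factor spliced by IRE1, and Ern1, the gene of IRE1 itself, were named after their values were seen. Xbp1 stood at 74.3 ± 2.33 and 64.6 ± 16.8 FPKM and Ern1 at 4.72 ± 0.478 and 3.69 ± 0.933 FPKM in WT and Zeb2+/- (SD, n = 4; limma adjusted p = 0.557 and 0.317). FPKM per gene cannot tell the spliced form of Xbp1 from the unspliced one. Zeb2+/- library 1 was the lowest of the 8 for 10 of the 14 genes, against 33.9% of all tested genes. Of 9 tested eIF2 kinase and phosphatase genes, 0 passed by limma or voom and 0 had an unadjusted p below 0.05 (median 0.03). Eif2ak3, the gene of PERK, was at 6.51 ± 0.720 and 5.60 ± 1.301 FPKM and Ppp1cb, a phosphatase catalytic subunit, at 23.3 ± 1.98 and 27.9 ± 3.27 FPKM (adjusted p = 0.525 and 0.314).

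Partners and targets of ATF4 lay on both sides of 0. Of 13 tested partners and stress regulators 0 passed, with 1 higher and 2 lower at an unadjusted p below 0.05 (median -0.08). Cebpb, a bZIP partner of ATF4, averaged 25.6 ± 2.16 FPKM (WT) and 39.6 ± 6.40 FPKM (Zeb2+/-), without overlap (log2 fold change 0.60, limma adjusted p = 0.0608). Sesn2, a leucine sensor induced by ATF4, was at 4.06 ± 0.385 and 2.71 ± 0.807 FPKM, also without overlap (log2 fold change -0.47, adjusted p = 0.184). Of 7 tested amino acid transporters (median -0.01) and 10 tested enzymes of amino acid and folate metabolism (median 0.06), 0 passed by limma or voom, and 0 had an unadjusted p below 0.05. Slc1a5, a glutamine carrier, was at 10.9 ± 0.794 and 14.9 ± 5.31 FPKM and Slc1a4, a carrier of neutral amino acids, at 1.21 ± 0.314 and 0.796 ± 0.232 FPKM (adjusted p = 0.349 and 0.363). The minimum mean left 13 of 18 listed regulators, 7 of 12 transporters and 10 of 15 enzymes. Below it, Stc2, Aldh1l2, Pycr1 and Slc6a9, named after their values were seen, were lower in Zeb2+/- without overlap, and the rest overlapped. The WT means of the named genes were 0.660, 0.166, 0.685 and 0.857 FPKM, against 0.193, 0.0168, 0.276 and 0.542 FPKM. None passed in limma's fit of all genes above 0 (smallest adjusted p = 0.0825). The share of all low genes without overlap was not computed, so the lack of overlap in these genes cannot be weighed. Reads per library were few. In WT and Zeb2+/- they were 39 to 62 and 6 to 25 for Stc2, and 13 to 27 and 0 to 3 for Aldh1l2. For Pycr1 they were 28 to 56 and 3 to 27, and for Slc6a9 48 to 86 and 21 to 55. Among the 20 tRNA synthetases of the cytosol (median -0.01) 0 passed, with 1 higher and 1 lower at an unadjusted p below 0.05. Cars was at 3.09 ± 0.156 and 4.19 ± 0.310 FPKM and Eprs at 5.16 ± 0.276 and 4.04 ± 0.743 FPKM, both without overlap (adjusted p = 0.0967 and 0.250).

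Several of the 10 tested enzymes of amino acid and folate metabolism had their extremes in Zeb2+/- libraries 1 and 3. Library 1 was the highest of the 8 for 7 enzymes, against 24.5% of all tested genes, and the lowest for Cth and Got1. Library 3 was the lowest for 7, against 19.1% of all tested genes, and the highest for Got1. Phgdh, the first enzyme of serine synthesis, chosen after its values were seen, stood at 6.53, 7.60, 5.55 and 6.68 FPKM in WT and at 15.8, 4.95, 1.85 and 7.84 FPKM in Zeb2+/-. Psat1, the next enzyme of the same path and chosen likewise, stood at 1.89, 3.04, 1.84 and 2.48 FPKM in WT and at 5.80, 2.16, 1.06 and 3.92 FPKM in Zeb2+/-. Library 3, with the highest Atf4, Ddit3 and Trib3, was thus the lowest for Phgdh, Psat1 and Asns, and it was also the lowest for 11 of the 20 tRNA synthetases. Of the named pair by rule in this list, Psph was at 1.44 ± 0.208 and 2.01 ± 0.491 FPKM and Cth at 45.2 ± 8.02 and 37.7 ± 9.45 FPKM (limma adjusted p = 0.324 and 0.535). The sum of 9 crypt and proliferation markers was 130.9 FPKM in library 3 and 238.7 to 257.8 FPKM in the other Zeb2+/- libraries, against 246.2 to 305.8 in WT, and its part in these values was not tested.

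Protein stress outside the ER showed 0 calls by limma and by voom. Of 15 tested heat shock genes of the cytosol, 0 were higher and 2 lower at an unadjusted p below 0.05 (median 0.04). Hspa1b, an inducible HSP70 gene, was at 3.90 ± 2.48 and 1.19 ± 0.341 FPKM without overlap, and its near-identical copy Hspa1a at 1.598 ± 1.15 and 0.449 ± 0.121 FPKM (adjusted p = 0.101 and 0.209). Reads of these copies can be split between them by the counting, so their separate values are uncertain. Of 10 tested genes of mitochondrial protein stress 1 was higher at an unadjusted p below 0.05 (median 0.03), the co-chaperonin Hspe1 at 52.2 ± 6.83 and 78.2 ± 26.8 FPKM (adjusted p = 0.240). Grpel1, a mitochondrial cofactor of HSP70, was at 13.9 ± 1.71 and 11.2 ± 4.06 FPKM (adjusted p = 0.480).

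The genes most like the 3 members of largest difference were found by the root mean square difference of log2(FPKM + 1), less the WT mean, over the 8 libraries. For Atf4 they were Ccl25 (0.03), Atp6v0b (0.07) and Abhd11os (0.08). Ccl25, a chemokine of the small intestinal epithelium, had means of 65.4 FPKM in WT and 103.8 FPKM in Zeb2+/- (limma adjusted p = 0.0612). For Asns they were Fam129b (0.08), Aagab (0.09) and Myo10 (0.10), of which Myo10 passed (log2 fold change -0.48, adjusted p = 0.0472). For Ddit3 they were Uqcrb (0.09), Trp53i13 (0.11) and Tmem141 (0.11), and 0 of these passed.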

How the data were processed

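The deposited values are FPKM per gene and library, made by the authors from poly(A)-selected, dUTP-marked libraries, per the labels' protocols. HISAT2 2.0.5, featureCounts 1.5.0-p3 and GRCm38 (mm10) are named per the submitters' processing notes; the sources used here do not give the annotation release, strand setting or filters. FPKM times gene length gave whole reads for 100% of values above 0 (tolerance 0.01 read). The library total implied by the FPKM was 0.733 to 1.16 times the sum of those reads, so an extra scale factor of unstated origin stands in the values. 0 columns of other samples were present.

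Values were fitted as log2(FPKM + 1) with limma 3.58.1 in R 4.3.3 (eBayes with trend and robust, genotype as the only term) for the 12190 genes whose mean over the 8 libraries reached 1 FPKM. Adjusted p-values are Benjamini-Hochberg over all of them, two-sided. Fold changes on this scale understate those of low genes. Zeb2 was fitted among all 27850 genes above 0. All 10 members had the same position in GENCODE M21. Members, pathway lists and marker lists were chosen with earlier results of these data known. Named are all members, the called genes of each list or else its 2 of smallest p, and the 3 genes most like each of 3 members; others are marked. Protein sequences were not used here. The fit was also run on simulated data with the same spread in both genotypes, unlike these libraries. Its outcome is not given here and no result rests on it. Alternatives were pseudocount, filter, scaling, variance model, weights, replicate block, voom, removal of abundant genes and leaving out libraries; scaling by the sum of rebuilt reads was added after the data had been seen.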

Additional observations from a re-analysis of the deposited data

Results flagged for a closer look

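Each member's 4 values per genotype were screened with Dixon's 95% limit for the gap to the nearest library over the whole range. In 20 such groups 2 exceeded it, where chance flags about 1 in 20. Hsp90b1 stood at 130.0 FPKM in Zeb2+/- library 1, apart from the other 3 (gap over range 0.893). Trib3 stood at 24.7 FPKM in Zeb2+/- library 3 (gap over range 0.851), where Ddit3, Atf4 and Dnajb9 also had their highest values. The causes were not tested.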

How the results depend on the processing

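The count of 0 members passing held in 21 of 22 alternatives; with array weights 2 passed (Atf4 and Asns). For all genes the count was 157 with a mean FPKM of at least 5, 1187 with array weights, and 218 to 487 when single libraries were left out (218, 253 and 225 without WT library 1, 2 or 4). The count among the 158 pathway genes was 12 with array weights and 1 without the filter, with a mean FPKM of at least 5, under TPM scaling, scaling by rebuilt reads and quantile normalization, with abundant genes removed, and without Zeb2+/- libraries 1 and 3; leaving out single libraries gave 1 to 4. Zeb2 missed the threshold and passed in 3 alternatives: -0.58 (adjusted p = 0.0417) when trend and robust were off, -0.59 (0.0463) under array weights, and -1.67 (0.0110) under voom. Small differences changed sign. Hspa5 was at 0.059 under array weights, at 0.082 without Zeb2+/- libraries 1 and 3, and at -0.11 to 0.010 when single libraries were left out. For Pdia4 these values were 0.080, 0.028 and -0.15 to 0.083. Leaving out single libraries gave -0.45 to 0.013 for Dnajb9 and -0.097 to 0.43 for Trib3. The causes were not tested. Replicate numbers did not pair the libraries throughout: deviations of same-numbered libraries correlated at 0.236 and 0.327 for numbers 1 and 3, each its own best match, and at -0.160 and -0.189 for numbers 2 and 4, and with the replicate number as a block (replicate block) 299 genes and 0 members passed. Counting error limits Ddit3 most, with as few as 144 reads in a library; with 4 libraries per genotype, the spread between libraries sets the intervals.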
